A study of Homo sapiens with 26 samples.

Results

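The 10 genes described here encode cytokines, chemokines and feedback inhibitors that are transcribed in response to the transcription factor NF-kB. They are the chemokines CXCL1, CXCL2, CXCL3 and CCL20, the interleukins IL1A, IL1B and IL6, the interleukin-1 receptor antagonist IL1RN, and the inhibitors TNFAIP3 and NFKBIA. They were taken by symbol from the 26485 gene rows of each table, and all 10 were found in all 5 tables. Treated libraries were compared with control libraries in 6 comparisons.

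The 26 mRNA-seq libraries came from 3 established human lines of esophageal squamous cell carcinoma (ESCC), namely KYSE180, TE6 and KYSE150. KYSE180 cells were transfected with a non-targeting siRNA (siCont, 3 libraries) or siRNA against BRDT (siBRDT, 3 libraries), and in a separate experiment with siCont (2 libraries) or siRNA against TP63 (siTP63, 2 libraries). TE6 cells received siCont, siBRDT or siTP63 (2 libraries each, with siCont shared by both knockdowns), and KYSE150 cells received siCont or siTP63 (2 libraries each). Knockdown cells were cultured for 48 h. Several siRNA sequences per target belong to the study, and which of them, alone or pooled, each library received is not given in the sources used here. In KYSE150, in which BRDT is scarcely transcribed, cells overexpressing BRDT (BRDT-OE, 3 libraries) were compared with control cells (3 libraries), which per the study's methods were made by electroporation of plasmids. BRDT is a bromodomain protein gene of the BET family that is normally active in male germ cells, and TP63 encodes p63, a transcription factor of squamous epithelia. The labels do not state separate cultures, so the p-values measure only the spread between these libraries.

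NF-kB is a family of dimeric transcription factors that inhibitor proteins hold in the cytoplasm. Signals from the receptors of tumour necrosis factor, of interleukin-1 and of microbial products activate the IKK kinases, which mark the inhibitors for destruction, and the released dimers bind kB sites in promoters and enhancers. Among the genes they activate are NFKBIA, which encodes the inhibitor IκBα, and TNFAIP3, which encodes the ubiquitin-editing enzyme A20, so that the pathway limits itself. In squamous epithelia interleukin-1 and the CXCR2 ligands CXCL1, CXCL2 and CXCL3 are known as alarm signals that recruit neutrophils.

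The promoters of these genes were inspected for the kB motif, GGG followed by any 3 bases and TTCC, on both strands, in windows from 250 bases before to 50 bases after the annotated start (RefSeq, GRCh38.p14). All 10 genes were matched, with 13 windows because IL1A and IL1RN have several starts. A match lay in a window of 8 of the 10 genes, all but IL1A and IL1B. Of all 35116 promoter windows 6.52% held one, a share counted per window and not per gene. The genes were chosen as NF-kB linked and the motif with the promoters in view, so this is no test of enrichment. The AP-1 motif TGANTCA was matched in windows of IL1A and IL1RN, and in 7.71% of all windows. The windows below show the kB match in capitals, 5′ to 3′ on the strand of the gene. The 3 CXCL paralogs are shown because their windows are alike. IL6 and both inhibitors are shown as examples of the cytokine and feedback genes. IL1RN and CCL20 also have a match upstream of a start, at 97 and 79 bases before it, and are not printed.
CXCL1: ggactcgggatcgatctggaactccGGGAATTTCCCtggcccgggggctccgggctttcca
CXCL2: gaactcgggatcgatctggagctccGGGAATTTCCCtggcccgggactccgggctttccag
CXCL3: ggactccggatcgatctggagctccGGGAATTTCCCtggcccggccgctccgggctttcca
IL6: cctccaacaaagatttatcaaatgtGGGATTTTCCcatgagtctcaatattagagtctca
NFKBIA: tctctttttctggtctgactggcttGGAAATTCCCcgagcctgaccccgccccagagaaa
TNFAIP3: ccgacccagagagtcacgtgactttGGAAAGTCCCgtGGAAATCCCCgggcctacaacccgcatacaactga

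These windows lie at chr4:73869289-73869349 (CXCL1, plus strand), chr4:74099238-74099298 (CXCL2, minus strand), chr4:74038733-74038793 (CXCL3, minus strand), chr7:22727102-22727161 (IL6, plus strand), chr14:35404796-35404855 (NFKBIA, minus strand) and chr6:137867167-137867238 (TNFAIP3, plus strand). In each CXCL window 2 matches, 1 per strand, overlap by all but 1 base, and TNFAIP3 has 2 separate matches. Around the match, compared without gaps, 56 of 60 bases were equal between CXCL1 and CXCL3, 49 of 60 between CXCL1 and CXCL2 and 48 of 60 between CXCL2 and CXCL3. The first match lies between 67 and 81 bases before the start in these 6 genes. A match describes the letters of the window and is not evidence of binding.

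**Figure D1:**
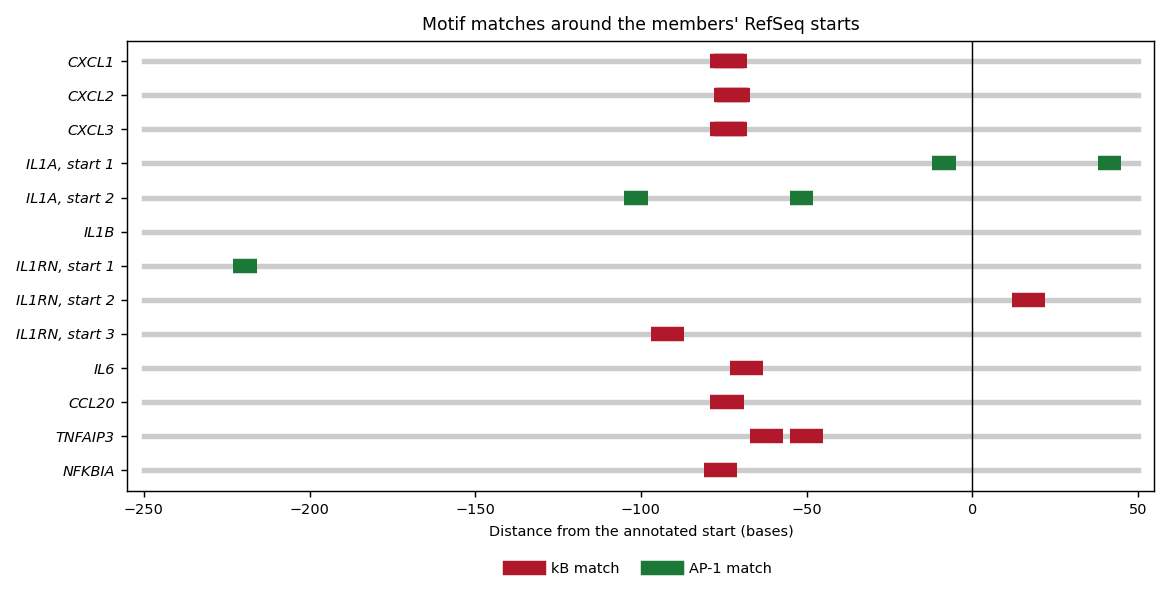
Position of kB (red) and AP-1 (green) motif matches in the 13 RefSeq promoter windows of the 10 genes, in bases from the annotated start (vertical line). All kB matches but 1 (in IL1RN) lie between 55 and 97 bases before the start, and IL1A and IL1B have none. The IL1RN matches are the same genomic site seen in overlapping windows of different starts.

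CXCL1 (chr4:73869393-73871308), CXCL3 (chr4:74036589-74038807) and CXCL2 (chr4:74097040-74099196) lie in 1 chemokine cluster, and IL1A (chr2:112773925-112784493), IL1B (chr2:112829751-112836816) and IL1RN (chr2:113099315-113134016) in the interleukin-1 cluster (hg38, GENCODE release 44). CCL20 lies at chr2:227805739-227817564, IL6 at chr7:22725884-22732002, TNFAIP3 at chr6:137867214-137883314 and NFKBIA at chr14:35401079-35404749. The CXCL paralogs are so alike that the counting could have split or lost their reads, and their values are uncertain for this reason. IL6 overlaps IL6-AS1 and STEAP1B, and TNFAIP3 overlaps WAKMAR2, on the opposite strand, so reads of these genes cannot be told apart in unstranded libraries.

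The values are normalised counts, that is reads on a gene divided by a size factor of the library, and the recovered totals ran from 7582089 to 19372441 reads per library. A count of 0 allows up to 3 reads, or a value of 1.99 to 4.72 depending on the library, by counting error only. BRDT went from between 1017 and 1136 to between 132 and 198 under siBRDT in KYSE180, from between 241 and 242 to between 46.6 and 55.02 in TE6, and from between 6.58 and 16.0 to between 15871 and 17542 under BRDT-OE. In the KYSE150 TP63 experiment BRDT was uneven between controls, at 60.9 in siCont replicate 1 and 8.25 in replicate 2, and at 0 and 10.6 in siTP63. TP63 under siTP63 went from between 2573 and 3035 to between 794 and 925 in KYSE180, from between 2596 and 2785 to between 112 and 133 in TE6, and from between 695 and 729 to between 114 and 170 in KYSE150. siBRDT libraries also held less TP63, at 5924 to 7223 against 9400 to 10366 in KYSE180 and at 1147 to 1282 against 2596 to 2785 in TE6. Of 10 squamous epithelial markers 9 to 10 had a mean of at least 10 over all libraries of a table, and of 8 leukocyte markers 1 to 3 did. Of 7 fibroblast markers 1 to 4 did, and of 4 endothelial markers 1 did in each table. The lysozyme gene LYZ was at 0 in all KYSE150 libraries. The summed leukocyte markers of this line were nevertheless at 457 to 539 in siCont and at 1512 to 1708 in plasmid controls.

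In control libraries NFKBIA was the most abundant of the 10 genes per length. It stood between 29.4 and 66.6 RPKM (reads per kilobase of transcript, scaled to the counted reads of the library) on average in the 5 control groups. CXCL1 came next in KYSE180 (8.04 ± 1.12 RPKM, SD, n = 3, and 5.00 ± 1.03 RPKM, SD, n = 2) and in TE6 (15.7 ± 0.711 RPKM, SD, n = 2). In KYSE150 CXCL1 had 0 to 2 reads in every library, and IL6 came second with 13.1 ± 6.28 RPKM (SD, n = 2) in siCont and 37.6 ± 7.87 RPKM (SD, n = 3) in plasmid controls. IL6 was at 0.0789 and 0.0678 RPKM in the control groups of KYSE180 and at 0.342 RPKM in TE6. KYSE150 thus stood apart from both other lines by its abundant IL6, IL1A and IL1B and its near-absent CXCL1, a difference between lines that was not tested because each table was normalised by itself.

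The control libraries of the same line differed between experiments. IL1A in KYSE150 was at 3.74 ± 0.0134 RPKM (SD, n = 2) with siCont and at 27.6 ± 3.16 RPKM (SD, n = 3) in plasmid controls. TNFAIP3 was at 1.10 ± 0.0646 RPKM in the former and at 10.6 ± 2.27 RPKM in the latter. TNFAIP3 in KYSE180 was at 2.99 ± 0.302 RPKM (SD, n = 3) in siCont of the BRDT experiment and at 0.506 ± 0.0546 RPKM (SD, n = 2) in siCont of the TP63 experiment. These levels are set side by side only, and each fold change below was taken within its own experiment.

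**Figure D2:**
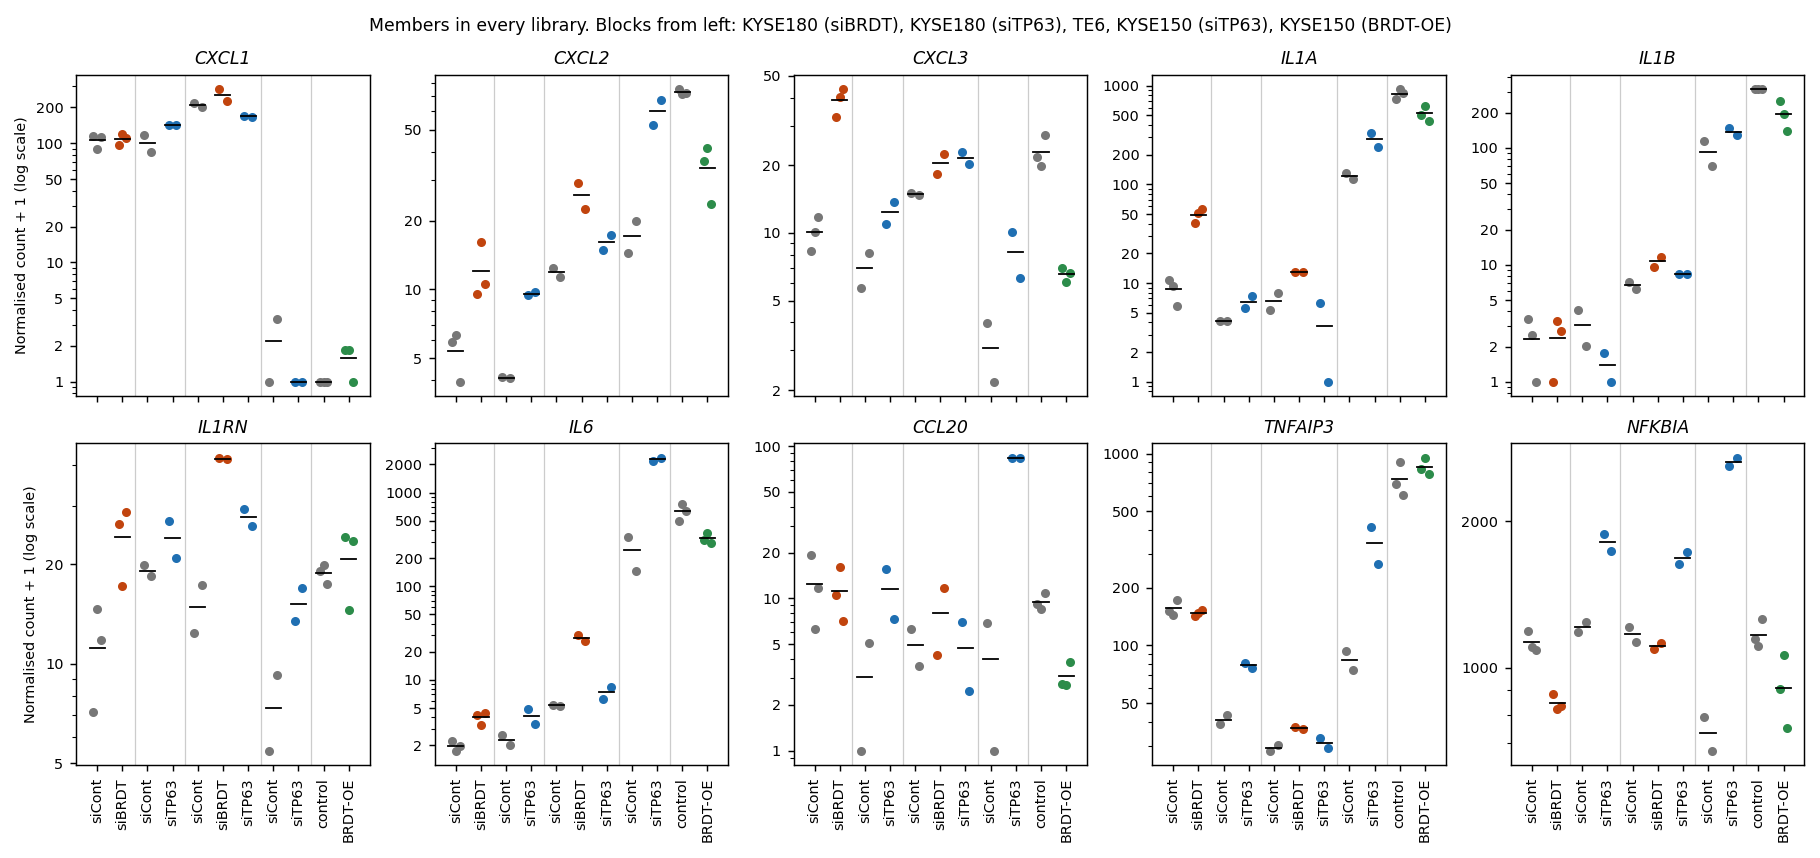
Normalised count plus 1 (log axis) of each of the 10 genes in all 26 libraries (points, by condition), with the mean of each group as a line. CXCL1 is near 0 in all KYSE150 libraries, IL6 is highest under siTP63 in KYSE150, and NFKBIA is higher under each siTP63 than in its controls.

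In order to see which members respond when BRDT is lost, KYSE180 siBRDT and siCont libraries were compared first. IL1A, CXCL3 and IL1RN rose, whereas CXCL1 and both inhibitors were not called. Calls required an adjusted p under 0.05 (limma on log2(value + 1) with Benjamini-Hochberg adjustment over all genes with a mean of 10 or more) together with a log2 fold change no smaller than 0.5 in either direction. Of the 10 genes 7 were tested and 3 were called up and 0 down, while 14.5% of all 13589 genes tested were called up and 15.8% down. CXCL3 and IL1A passed the filter on low values only through their siBRDT libraries, so the count of called genes carries no weight of its own. In bulk RNA, fewer cells that transcribe a gene and less RNA per cell cannot be told apart.

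Among the chemokines, CXCL3 had values of 7.35, 9.07 and 10.8 in siCont and 31.9, 39.4 and 42.7 in siBRDT. All siBRDT libraries lay above all siCont libraries, a 4.19-fold ratio of the means and a log2 fold change of 1.957 ± 0.26 (SE, adjusted p = 1.43e-05, limma). CXCL1, which had much higher values, was at 105 ± 14.1 and 108 ± 11.2 (SD, n = 3 each), with overlapping groups (0.04, adjusted p = 0.811, limma). CXCL2 averaged 4.38 ± 1.26 in siCont and 11.05 ± 3.51 in siBRDT (SD, n = 3 each) and was under the filter. Without a filter its log2 fold change was 1.15 (adjusted p = 0.0315, limma). CCL20, a chemokine for CCR6-bearing lymphocytes and dendritic cells, was at 11.5 ± 6.57 and 10.2 ± 4.52 (SD, n = 3 each) and was not called (-0.08, adjusted p = 0.881, limma).

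IL1A, the alarm cytokine that keratinocytes hold preformed, had values of 9.80, 8.32 and 4.90 in siCont and 39.4, 49.8 and 54.8 in siBRDT. The groups were far apart, with a 6.26-fold ratio of the means and a log2 fold change of 2.53 ± 0.28 (SE, adjusted p = 2.67e-06, limma). IL1RN, whose product blocks the interleukin-1 receptor, had values of 6.13, 13.6 and 10.8 in siCont and 25.6, 16.2 and 27.9 in siBRDT. The lowest siBRDT library was close to the highest siCont library, and the log2 fold change was 1.14 ± 0.33 (SE, adjusted p = 0.00848, limma). IL1B was at 0 to 2.45 in all 6 libraries. The ratio of IL1A plus IL1B to IL1RN was 1.06 ± 0.826 in siCont and 2.26 ± 0.860 in siBRDT (SD, n = 3 each), with overlapping ranges of 0.455 to 2.0 and 1.54 to 3.21. IL6 was at 0.756 to 1.23 in siCont and 2.32 to 3.48 in siBRDT, too low for the test.

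NFKBIA was at 1127 ± 55.8 in siCont and 848 ± 32.6 in siBRDT (SD, n = 3 each). No siBRDT library reached the lowest siCont library, but the log2 fold change of -0.41 ± 0.07 (SE, adjusted p = 1.05e-04, limma) was under the fold-change limit, so it was not called. TNFAIP3 was at 155 ± 14.3 and 146 ± 5.93 (SD, n = 3 each), which did not pass the test (-0.08, adjusted p = 0.568, limma). CXCL3, IL1A and IL1RN were called under each of the 13 alternatives tried for them.

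The other genes of the pathway went both ways under siBRDT in KYSE180. Of 122 genes in lists of NF-kB subunits, inhibitors, kinases, cytokines, receptors, chemokines and targets, 77 were tested, 10 were called up and 16 down (all genes 14.5% and 15.8%), and their median log2 fold change was -0.11 against -0.01 over all genes tested. Among 11 tested inhibitors and deubiquitinases 4 rose and 2 fell, including rises of NFKBIB (660 ± 42.3 in siCont and 1353 ± 157 in siBRDT, SD, n = 3 each, a rise of 1.03 on the log2 scale, adjusted p = 1.24e-07, limma) and NFKBIE (148 ± 12.99 to 265 ± 16.2, 0.84, adjusted p = 6.38e-06, limma), which encode inhibitors related to IκBα. MYD88, the adaptor of the interleukin-1 receptor, rose by 0.75 (adjusted p = 1.81e-06, limma). CXCL14 fell most, from 71.4 ± 6.599 to 2.13 ± 1.17 (-4.61, adjusted p = 2.98e-08, limma), followed by IL6R, the interleukin-6 receptor (-1.47, adjusted p = 4.59e-10, limma), and BMP2 (-1.43, adjusted p = 0.00687, limma). CXCL8, a further CXCR2 ligand, was at 85.3 ± 7.06 and 60.5 ± 10.0, and its log2 fold change of -0.50 fell just short of the limit (adjusted p = 0.0138, limma, 7.72e-03 to 0.0622 over 13 alternatives, called in 5). CXCL14 and BMP2 passed the filter on low values only through their siCont libraries, so their calls carry no weight of their own. TNF had values of 0 to 2.27.

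siBRDT was next compared with siCont in TE6. IL6, IL1RN and CXCL2 rose, and CXCL1, CXCL3 and both inhibitors were not called. Of the 10 genes 7 were tested and 3 were called up and 0 down, with 15.6% of all 13333 genes tested called up and 18.1% down. IL6 passed the filter only through its siBRDT libraries.

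CXCL2 had values of 11.4 and 10.3 in siCont and 28.1 and 21.5 in siBRDT. Both siBRDT libraries lay above siCont, with a log2 fold change of 1.11 ± 0.38 (SE, adjusted p = 0.0292, limma), but this call was lost without siCont replicate 1 (adjusted p = 0.0905), siCont replicate 2 (0.139) or siBRDT replicate 1 (0.113), and over 14 alternatives the adjusted p ran from 0.0218 to 0.143. CXCL1 was at 208 ± 10.38 and 254 ± 41.1 (SD, n = 2 each; 0.28, adjusted p = 0.167, limma), and CXCL3 at 13.9 ± 0.201 and 19.4 ± 2.998 (0.44, adjusted p = 0.332, limma). CCL20 was at 2.58 to 10.7 in the 4 libraries and was not tested.

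IL6 had values of 4.40 and 4.31 in siCont and 29.1 and 25.1 in siBRDT. The siBRDT libraries were several-fold above siCont, with a 6.23-fold ratio of the means and a log2 fold change of 2.39 ± 0.47 (SE, adjusted p = 0.00131, limma). IL1RN had values of 11.4 and 16.4 in siCont and 41.0 and 40.6 in siBRDT, likewise without overlap (1.51 ± 0.32, SE, adjusted p = 0.00215, limma). IL1A was at 5.64 ± 1.76 and 11.9 ± 0.0548, and IL1B at 5.66 ± 0.697 and 9.69 ± 1.499 (SD, n = 2 each), both under the filter. Inhibitor transcripts stayed within 0.5 on the log2 scale. NFKBIA was at 1171 ± 56.2 and 1108 ± 19.6 (-0.08, adjusted p = 0.544, limma), and TNFAIP3 at 28.3 ± 1.44 and 36.3 ± 0.599 (0.35, adjusted p = 0.325, limma).

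Of the 122 further pathway genes 77 were tested in TE6, with 9 called up and 15 down under siBRDT (all genes 15.6% and 18.1%) and a median of -0.11 against -0.04 over all genes. CCL5, a T-cell chemokine, rose most, from 17.4 ± 1.48 to 121 ± 4.11 (2.73, adjusted p = 1.76e-05, limma), followed by IL36RN, the interleukin-36 receptor antagonist (1.38, adjusted p = 0.00323, limma), and LCN2 (1.20, adjusted p = 0.0467, limma, called in 3 of 14 alternatives, 0.0276 to 0.273). The falls were led by IL1RAP, a subunit of the interleukin-1 receptor (-1.66, adjusted p = 1.34e-04, limma), by CHUK, which encodes the kinase IKKα (-1.58, adjusted p = 1.84e-05, limma), and by NFKB1, the p105/p50 subunit of NF-kB (505 ± 39.3 to 196 ± 30.1, -1.37, adjusted p = 1.64e-05, limma). LCN2 averaged 7.41 in siCont, under the filter value of 10, and passed the filter only through libraries where it was higher. CXCL8 was not called (-0.23, adjusted p = 0.517, limma), and TNF had values of 0 to 7.55. The summed level of 10 interferon-stimulated genes rose with these changes, from between 1860 and 2143 in siCont to between 19927 and 24442 in siBRDT, with 8 of 8 tested members called up, and its part in the cytokine changes was not tested. In KYSE180 the same sum was at 6561 to 7324 in siCont and 6365 to 7663 in siBRDT. Of its 8 tested members there 2, IFIT2 and IFIT3, were called up and 0 down, beside 14.5% and 15.8% of all genes. Summed squamous markers, a list that holds TP63 itself, were also lower after siBRDT, at 63935 to 66386 against 104641 to 112418 in KYSE180 and at 59441 to 64737 against 91823 to 95236 in TE6. Of 10 squamous markers tested 7 were called down in KYSE180 and 5 in TE6, where 3 lay above 0. None was called up. The leukocyte sum was lower too, at 250 to 306 against 572 to 646 and at 244 to 272 against 404 to 419. CD68 was the only leukocyte marker called, down in both lines, of 3 tested in KYSE180 and 1 in TE6. The fibroblast sum was 1084 to 1270 against 1064 to 1207 in KYSE180 and 296 to 355 against 317 to 361 in TE6. COL3A1 was the only fibroblast marker called, up in KYSE180, of 4 tested there and 3 in TE6. The part of these lists was not tested.

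The siBRDT responses of the 2 lines were then compared as a difference of fold changes, for which 37.2% of all genes tested differed at an adjusted p under 0.05. CXCL3 rose more in KYSE180 than in TE6, by 1.52 ± 0.42 on the log2 scale (SE, adjusted p = 0.0107, limma), and IL1A by 1.55 ± 0.50 (SE, adjusted p = 0.0256, limma). IL1A was under the filter in TE6 and entered this test through its KYSE180 siBRDT libraries. NFKBIA differed by -0.33 ± 0.12 (SE, adjusted p = 0.0381, limma), lower in KYSE180. CXCL3 passed under all 15 alternatives, IL1A under 9 (adjusted p 0.0233 to 0.109) and NFKBIA under 8 (0.0232 to 0.145), and each of the latter pair was lost without TE6 siCont replicate 2 (0.109 and 0.145). IL1RN, which was called in both lines, did not pass this test (-0.37 ± 0.50, SE, adjusted p = 0.595, limma), nor did CXCL1, CXCL2 or TNFAIP3. IL6, with few reads in KYSE180, was not tested for the difference.

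**Figure D3:**
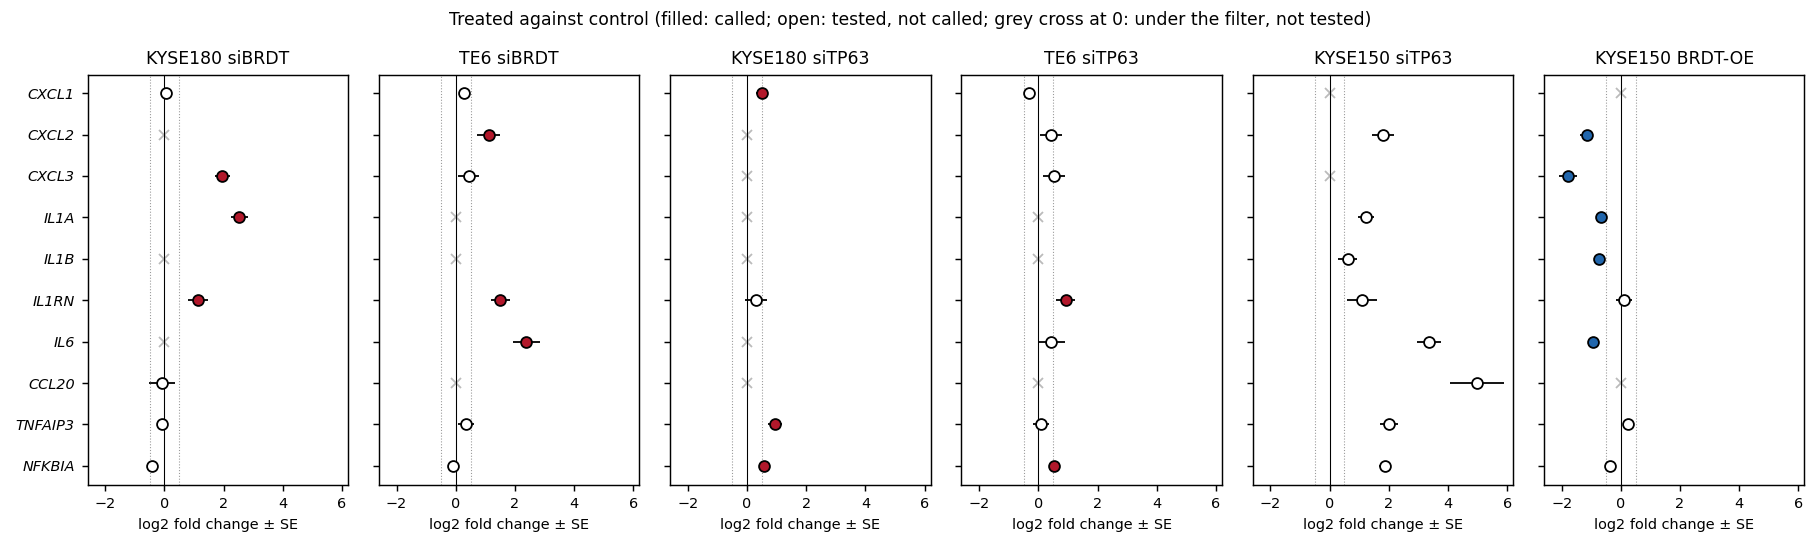
Log2 fold change (points) ± SE (bars) of the 10 genes in the 6 comparisons, treated against control, with dotted lines at 0.5 and -0.5. Red marks genes called up and blue genes called down. IL1RN is called up in 3 of the 6 comparisons, the falls are all under BRDT-OE, and KYSE150 siTP63 has the highest points, CCL20 and IL6, with no call.

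To ask which of the genes respond to loss of p63, siTP63 was compared with siCont in KYSE180. The inhibitors NFKBIA and TNFAIP3 and the chemokine CXCL1 rose. Only 4 of the 10 genes were tested, since CXCL2, CXCL3, CCL20, IL1A, IL1B and IL6 were under the filter, and 3 were called up and 0 down, with 23.6% of all 13924 genes called up and 25.7% down. Rescaling the libraries to equal upper quartiles shifted the all-gene median to 0.19 and turned the 3292 up and 3577 down calls into 4524 up and 2631 down.

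NFKBIA had values of 1183 and 1241 in siCont and 1882 and 1740 in siTP63. Both siTP63 libraries were higher, with a log2 fold change of 0.58 ± 0.14 (SE, adjusted p = 9.11e-04, limma). TNFAIP3 had values of 37.8 and 42.1 in siCont and 79.8 and 75.5 in siTP63, a 1.94-fold ratio (0.94 ± 0.25, SE, adjusted p = 0.00213, limma), again without overlap. Both were called under each of 11 alternatives. CXCL1 was at 116 and 83.2 in siCont and 141 and 140 in siTP63, just past the limit at 0.51 ± 0.21 (SE, adjusted p = 0.0356, limma). It was not called without siCont replicate 2 (0.27, adjusted p = 0.265), siTP63 replicate 1 (adjusted p = 0.162) or siTP63 replicate 2 (0.157), and over 11 alternatives the adjusted p ran from 8.82e-04 to 0.265.

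IL1RN was at 18.2 ± 1.00 and 23.0 ± 4.39 (SD, n = 2 each; 0.31, adjusted p = 0.484, limma). Among the genes under the filter, CXCL2 went from 3.11 ± 0.0465 to 8.59 ± 0.214, CXCL3 from 5.95 ± 1.75 to 11.3 ± 1.94 and IL1A from 3.11 ± 0.0465 to 5.48 ± 1.2402 (SD, n = 2 each). CCL20 was at 0 and 4.11 in siCont and at 14.6 and 6.36 in siTP63. IL6 was at 1.03 to 3.83 and IL1B at 0 to 3.15. Without a filter none of these 6 passed, with adjusted p between 0.0613 and 0.321 (limma).

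Of 122 further pathway genes 80 were tested in KYSE180 under siTP63, with 28 called up and 12 down (all genes 23.6% and 25.7%) and a median of 0.20, against 6.36e-04 over all genes. TNFSF15 (1.54 ± 2.18 to 19.5 ± 1.59, 3.34, adjusted p = 2.20e-04, limma), IL23A (3.04, adjusted p = 6.74e-04, limma) and IL36RN (9.34 ± 0.139 to 51.3 ± 11.8, 2.32, adjusted p = 5.59e-06, limma) rose most. All of them passed the filter only through their siTP63 libraries, so their calls carry no weight of their own. CASP1, the protease that matures IL1B, fell most, from 228 ± 22.6 to 37.5 ± 0.934 (-2.57, adjusted p = 2.81e-10, limma), followed by IL6R (-2.15, adjusted p = 3.07e-10, limma) and CCL26 (-1.75, adjusted p = 2.10e-05, limma). CXCL8 rose from 15.6 ± 4.63 to 45.7 ± 1.69 (1.52, adjusted p = 4.37e-04, limma), and TNF had 0 reads in both siCont libraries and values of 4.602 and 3.18 in siTP63. Of 8 tested members of the IL-6 family and its receptors 5 rose, among them IL6ST, LIFR and OSMR, and 1 fell, read beside the same 23.6% and 25.7%. The interferon-stimulated sum went from between 3896 and 4654 to between 20171 and 20248, with all 8 tested members called up. In the same libraries the endothelial sum, with 1 of 4 markers at a mean of at least 10, went from between 23.6 and 36.2 to between 137 and 139, the squamous sum from between 144268 and 156082 to between 70822 and 73696, and the leukocyte sum from between 514 and 539 to between 182 and 200.995. Of 2 leukocyte markers tested CD68 was called down and ITGAM up. Of 10 squamous markers tested 7 were called down and 1, CDH1, up. The fibroblast sum went from between 600 and 689 to between 790 and 969, with 0 of 2 tested markers called. The part of these lists was not tested.

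In TE6, siTP63 raised NFKBIA and IL1RN, and no other member was called. Of the 10 genes 7 were tested and 2 were called up and 0 down, with 18.3% of all 13333 genes called up and 20.6% down. The siCont libraries are those of the TE6 siBRDT comparison, so the values of both comparisons are not independent.

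NFKBIA had values of 1211 and 1131 in siCont and 1637 and 1728 in siTP63. The groups were well apart, with a log2 fold change of 0.52 ± 0.10 (SE, adjusted p = 8.75e-04, limma), which lay at the limit and dropped to 0.47 without siCont replicate 2 and 0.48 without siTP63 replicate 2. IL1RN had values of 11.4 and 16.4 in siCont and 28.5 and 25.1 in siTP63 (0.92 ± 0.32, SE, adjusted p = 0.0292, limma). It was lost without siCont replicate 1 (adjusted p = 0.186), siTP63 replicate 1 (0.137) or siTP63 replicate 2 (0.0778), and over 14 alternatives the adjusted p ran from 0.0142 to 0.186. TNFAIP3, at 28.3 ± 1.44 and 30.0 ± 2.64 (SD, n = 2 each), was not called (0.08, adjusted p = 0.83, limma).

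CXCL1 was at 215 and 200.7 in siCont and at 169 and 164 in siTP63, lower in both libraries, but did not pass the test (-0.32 ± 0.16, SE, adjusted p = 0.106, limma). CXCL2 (10.9 ± 0.772 to 15.1 ± 1.66, 0.44, adjusted p = 0.357, limma) and CXCL3 (13.9 ± 0.201 to 20.6 ± 1.88, 0.53, adjusted p = 0.237, limma) were not called. IL6 was at 4.31 to 4.40 in siCont and at 5.31 and 7.40 under siTP63, and was not called (0.44, adjusted p = 0.455, limma). Both groups were under the filter value, and IL6 was tested only through the siBRDT libraries of the shared fit. IL1A, IL1B and CCL20 had values of 0 to 7.40 in these 4 libraries.

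Of the further pathway genes in TE6 11 of 77 were called up and 22 down under siTP63, while 18.3% of all genes were called up and 20.6% down, so that falls outnumbered rises among all genes too. They had a median of -0.09 against -0.01 over all genes. IL36RN rose most (10.8 ± 4.15 to 99.2 ± 4.24, 3.13, adjusted p = 6.20e-06, limma), then ICAM1, an adhesion molecule for leukocytes (2.26, adjusted p = 3.90e-04, limma), and IL23A (1.54, adjusted p = 0.0401, limma, called in 7 of 14 alternatives, 1.42e-03 to 0.429). ICAM1 and IL23A averaged under 10 in siCont and passed the filter only through libraries where they were higher. IL6R (696 ± 16.2 to 66.4 ± 8.58, -3.38, adjusted p = 1.38e-08, limma), IL1RAP (-2.68, adjusted p = 2.20e-06, limma) and CX3CL1 (-2.22, adjusted p = 1.01e-07, limma) fell most. CXCL8 fell from 101 ± 17.0 to 42.2 ± 15.6 (-1.27, adjusted p = 0.00167, limma), whereas it rose in KYSE180, and this difference was not tested. Of 8 tested genes of the IL-6 family and its receptors 6 fell, LIFR, IL6ST and OSMR among them, beside 20.6% of all genes. The interferon-stimulated sum was between 12716 and 13479, against 1860 to 2143 in siCont. The squamous sum was 25628 to 26874 against 91823 to 95236, the leukocyte sum 76.9 to 110 against 404 to 419 and the endothelial sum 90.9 to 109 against 50.8 to 66.8. CD68 was the only leukocyte marker tested and was called down. Of 10 squamous markers tested 8 were called down and 0 up. The fibroblast sum was 317 to 352 against 317 to 361. The part of these lists was not tested.

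**Figure D4:**
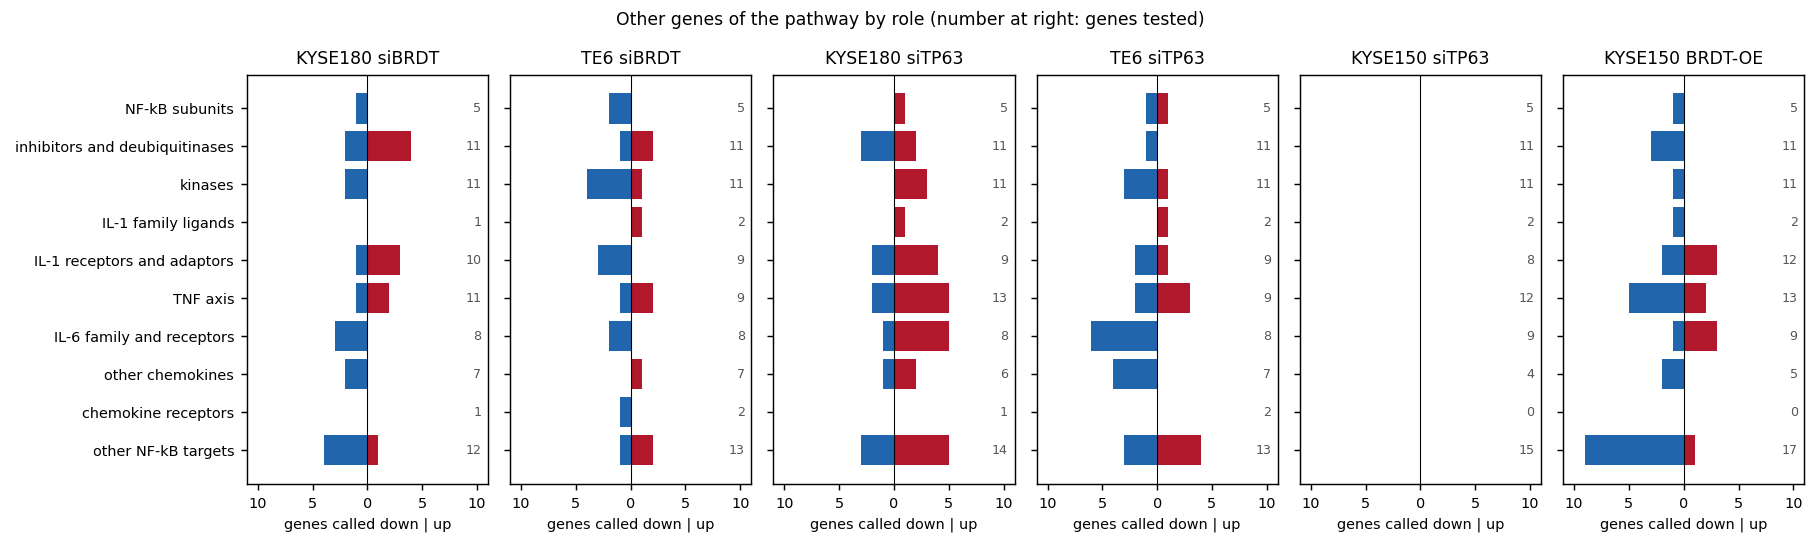
Number of further pathway genes called up (red, right) and down (blue, left) in each of 10 lists, with the number tested at the right edge, in the 6 comparisons. The IL-6 family list has 5 rises and 1 fall under siTP63 in KYSE180 and 6 falls in TE6, and the other NF-kB targets have 9 falls under BRDT-OE.

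Compared as a difference of fold changes, for which 55.5% of all genes tested differed, siTP63 moved CXCL1 upward in KYSE180 relative to TE6 by 0.83 ± 0.25 (SE, adjusted p = 0.0113, limma) and TNFAIP3 by 0.86 ± 0.33 (SE, adjusted p = 0.0399, limma). CXCL1 passed under all 13 alternatives and TNFAIP3 under 5. With the replicate number as a block TNFAIP3 did not pass (adjusted p = 0.0598, limma). NFKBIA did not pass the test of the difference (0.06 ± 0.13, SE, adjusted p = 0.748, limma). Within KYSE180, the fold changes under siBRDT and siTP63, taken from separate experiments with their own controls, differed for NFKBIA by -0.99 ± 0.12, for TNFAIP3 by -1.02 ± 0.21 and for IL1A by 1.89 ± 0.55 (SE, adjusted p = 1.61e-06, 3.49e-04 and 0.00627, limma), with 63.8% of all genes past this test. The inhibitors were thus higher after siTP63 than after siBRDT relative to control, and IL1A the reverse. IL1A, however, was under the filter in the TP63 experiment and entered this contrast only through its siBRDT libraries. edgeR did not call its difference (adjusted p = 0.0724, edgeR). CXCL3 missed the threshold (1.12 ± 0.49, SE, adjusted p = 0.054, limma).

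siTP63 in KYSE150 gave the largest fold changes of the 6 comparisons, for CCL20 and IL6, but no call. Of the 10 genes 8 were tested, all had a fold change above 0, and 0 were called, as were 0.0% of all 12335 genes tested. At an unadjusted p under 0.05 6 of the 8 were higher, against 8.67% of all genes tested. edgeR called 0 of the members. DESeq2 called 5 (IL6, CCL20, NFKBIA, TNFAIP3 and IL1A) and 1.64% of all genes up. CCL20 and IL1RN passed the filter only through siTP63.

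IL6 had values of 339 and 144 in siCont and 2178 and 2340 in siTP63. The siTP63 libraries were far above siCont, a 9.37-fold ratio of the means (3.35 ± 0.41, SE, adjusted p = 0.0848, limma, 2.49e-19 to 0.0878 over 12 alternatives, called in 9). Of these 9 calls 4 came from fits with 1 library left out, 1 from the replicate block and 1 from a crossed pairing that was added because same-numbered libraries deviated in opposite directions, which fixed its small residual and gave the lowest value. These 6 leave 1 residual degree of freedom per gene and carry no weight for this comparison. The other calls were DESeq2 (3.83e-14), no filter (0.0274) and the length and GC trend removed (0.0245), while edgeR (0.0864) did not call IL6. The same 6 fits are among the alternatives that called CCL20, NFKBIA and TNFAIP3 below. CCL20 had 4 and 0 reads in siCont and 99 and 62 reads in siTP63, or values of 5.94 and 0 against 82.3 and 82.5 (4.98 ± 0.92, SE, adjusted p = 0.112, limma, called in 8 of 12 alternatives). The size of this change rests on 4 control reads and on the pseudocount. CXCL2 had values of 13.4 and 18.9 in siCont and 51.5 and 66.5 in siTP63 (1.82 ± 0.37, SE, adjusted p = 0.123, limma), while CXCL3 was at 1.18 to 9.14 and CXCL1 at 0 to 2.36.

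IL1A had values of 129 and 112 in siCont and 331 and 241 in siTP63, without overlap (1.22 ± 0.26, SE, adjusted p = 0.129, limma). IL1B was at 114 and 69.5 in siCont and at 146 and 128 in siTP63, a smaller difference (0.61 ± 0.32, SE, adjusted p = 0.383, limma). IL1RN was at 6.35 ± 2.68 and 14.2 ± 2.48 (SD, n = 2 each; 1.09, adjusted p = 0.34, limma).

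NFKBIA had values of 790 and 675 in siCont and 2595 and 2699 in siTP63. Its log2 fold change of 1.86 ± 0.19 (SE, adjusted p = 0.0818, limma, called in 9 of 12 alternatives) was close to the lowest adjusted p that any gene reached here, 0.080. TNFAIP3 had values of 92.1 and 73.0 in siCont and 414 and 264 in siTP63 (1.997 ± 0.31, SE, adjusted p = 0.111, limma, called in 8 of 12). Between 4 and 5 members were called in each of the 4 fits without 1 library, which leave 1 residual degree of freedom and assume that the lone library varies like the other group.

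In KYSE150 under siTP63, 61 of 77 further pathway genes tested were above 0, with a median of 0.43 against -0.01 over all genes, 0 called, and 33 higher and 3 lower at an unadjusted p under 0.05 (8.67% of all genes were higher). CXCL8 had values of 53.5 and 43.6 in siCont and 293 and 205 in siTP63 (2.32 ± 0.30, SE, adjusted p = 0.097, limma, called in 9 of 12 alternatives, 2.16e-11 to 0.105). TNF had values of 1.48 and 3.53 in siCont and 41.5 and 35.9 in siTP63 (3.56 ± 0.52, SE, adjusted p = 0.111, limma, called in 8 of 12, 1.40e-06 to 0.113). TNF passed the filter only through siTP63. Beside these values the interferon-stimulated sum was 1478 to 1758 in siCont and 1963 to 4296 in siTP63, and the leukocyte marker sum 457 to 539 and 461 to 494. The endothelial marker sum was 11.8 to 29.7 in siCont and 90.5 to 153 in siTP63, carried by 1 of 4 markers with a mean of at least 10. The squamous sum was 23897 to 24845 in siCont and 14277 to 16110 in siTP63, with 2 of 9 tested markers above 0. The fibroblast sum was 65.3 to 75.4 in siCont and 91.8 to 116 in siTP63, with 2 of 7 markers at a mean of at least 10. The part of these lists in the cytokine values was not tested.

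The siTP63 response of KYSE150 was set against those of the other lines. The fold change of NFKBIA was lower in KYSE180 than in KYSE150, by a difference of -1.28 ± 0.19 (SE, adjusted p = 0.0361, limma, 2.05% of all genes past the test), and lower in TE6 than in KYSE150, by -1.33 ± 0.17 (SE, adjusted p = 0.0204, limma, 2.37% of all genes). IL6 differed between TE6 and KYSE150 by -2.91 ± 0.55 (SE, adjusted p = 0.0484, limma). None of these 3 passed with the replicate number as a block (adjusted p = 0.259, 0.264 and 0.264), and over 13 alternatives they passed in 5, 8 and 4. TNFAIP3 (-1.92 ± 0.38, SE, adjusted p = 0.0533, limma) and CCL20 (-5.17 ± 1.28, SE, adjusted p = 0.0819, limma) missed the threshold in the contrast of TE6 with KYSE150, and IL6 missed it between KYSE180 and KYSE150 (-2.52 ± 0.59, SE, adjusted p = 0.0741, limma). IL6 averaged 4.35 in siCont and 6.35 in siTP63 of TE6, and 1.30 and 3.11 in KYSE180. These means are under the filter value of 10, so IL6 entered both contrasts only through its KYSE150 libraries.

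Overexpression of BRDT in KYSE150 was compared with control plasmid to ask how gain of BRDT bears on these genes. CXCL2, CXCL3, IL1A, IL1B and IL6 fell, and none rose. Of the 10 genes 8 were tested, with 5 called down and 0 up, against 16.0% of all 12765 genes called down and 10.5% up. Rescaling to equal upper quartiles turned the 1343 up and 2043 down calls of all genes into 889 up and 2529 down. CXCL3 passed the filter only through its control libraries.

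CXCL3 had values of 20.8, 18.9 and 26.3 in controls and 6.02, 5.07 and 5.62 in BRDT-OE. The groups did not overlap, with a 3.95-fold ratio of control to BRDT-OE and a log2 fold change of -1.80 ± 0.31 (SE, adjusted p = 8.00e-04, limma). CXCL2, the main CXCL paralog of KYSE150, had values of 74.1, 70.7 and 71.3 in controls and 35.2, 40.6 and 22.5 in BRDT-OE (-1.15 ± 0.22, SE, adjusted p = 0.00167, limma). CCL20 had 8 or 9 reads in each control and 2 reads in each BRDT-OE library, and was under the filter. Without it the log2 fold change was -1.64 (adjusted p = 0.00818, limma).

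IL6 had values of 500, 760 and 637 in controls and 311, 366 and 291 in BRDT-OE. Every BRDT-OE library was below every control (-0.95 ± 0.15, SE, adjusted p = 4.16e-04, limma). IL1A had values of 737, 922 and 836 in controls and 507, 625 and 437 in BRDT-OE (-0.68 ± 0.13, SE, adjusted p = 0.00159, limma). IL1B was nearly constant in controls at 316, 316 and 317, and at 248, 192 and 139 in BRDT-OE (-0.75 ± 0.17, SE, adjusted p = 0.00492, limma). IL1RN did not move with them, at 17.8 ± 1.23 and 19.7 ± 5.40 (SD, n = 3 each; 0.11, adjusted p = 0.769, limma). The ratio of IL1A plus IL1B to IL1RN was 58.3 to 70.1 in controls and 25.6 to 60.4 in BRDT-OE, with overlapping ranges.

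NFKBIA was at 1170 ± 78.3 and 907 ± 157 (SD, n = 3 each), which gave a fold change of -0.38 on the log2 scale (SE 0.12, adjusted p = 0.0196, limma) that was under the limit and passed it only without BRDT-OE replicate 2 (-0.50). TNFAIP3 was at 734 ± 149 and 854 ± 83.1 (0.23, adjusted p = 0.165, limma), with overlapping groups. The 5 falls were called under each of 13 alternatives, in which the fold change of CXCL3 ran from -1.99 to -1.66.

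TNF itself fell steeply under BRDT-OE, from values of 44.3 to 50.9 in controls to 0.846 to 2.58 (-4.27 ± 0.35, SE, adjusted p = 1.18e-05, limma). CCL5 (152 ± 29.4 to 7.48 ± 3.496, -4.25, adjusted p = 5.36e-06, limma) and LTB, the lymphotoxin subunit (31.2 ± 2.56 to 1.14 ± 0.985, -4.05, adjusted p = 7.29e-05, limma), fell similarly. The rises were led by IL1R2, the decoy receptor of interleukin-1, from 9.71 ± 5.57 to 85.6 ± 7.53 (3.20, adjusted p = 1.36e-04, limma), by IL1RL1 (2.75, adjusted p = 0.00112, limma) and by IL11 (262 ± 17.2 to 561 ± 32.3, 1.09, adjusted p = 1.27e-05, limma). TNF, CCL5 and LTB passed the filter only through their controls, and IL1R2 and IL1RL1 only through BRDT-OE. Their calls therefore carry no weight of their own. CXCL8 was not called (0.31, adjusted p = 0.199, limma). Of 122 further genes 85 were tested, with 9 called up and 25 down (all genes 10.5% and 16.0%) and a median of -0.12 against 0.02 over all genes. In the list of other NF-kB targets 9 of 17 tested fell, including ICAM1, C3 and IL32, and PTGS2 rose. The interferon-stimulated sum went from between 3413 and 4831 to between 866 and 965, with 7 of 7 tested members called down. Beside it, the fibroblast sum was 139 to 154 in controls and 73.1 to 89.99 in BRDT-OE, the leukocyte sum 1512 to 1708 and 1312 to 1368, and the squamous sum 24916 to 27605 and 29012 to 30273. Of 3 leukocyte markers tested only ITGAM was called, and it was down. Of 9 squamous markers tested KRT14 and KRT6A were called up and DSG3 down. The part of these lists in the cytokine changes was not tested.

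The makeup of the CXCL reads differed by line. CXCL1 supplied 88.5% ± 2.19 (SD, n = 3) and 91.3% ± 3.30 (SD, n = 2) of the reads of the 3 paralogs in KYSE180 siCont and 89.3% ± 0.102 (SD, n = 2) in TE6 siCont. In KYSE150 CXCL2 supplied 83.0% ± 1.69 (SD, n = 2) in siCont and 76.7% ± 3.20 (SD, n = 3) in plasmid controls. Under siBRDT in KYSE180 the share of CXCL3 was 22.8% to 26.5%, against 5.83% to 8.82% in siCont, without overlap, and that of CXCL1 was 67.6% to 70.3% against 86.0% to 90.3%. These shares follow from the fold changes above and depend on how reads were assigned among near-identical paralogs.

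**Figure D5:**
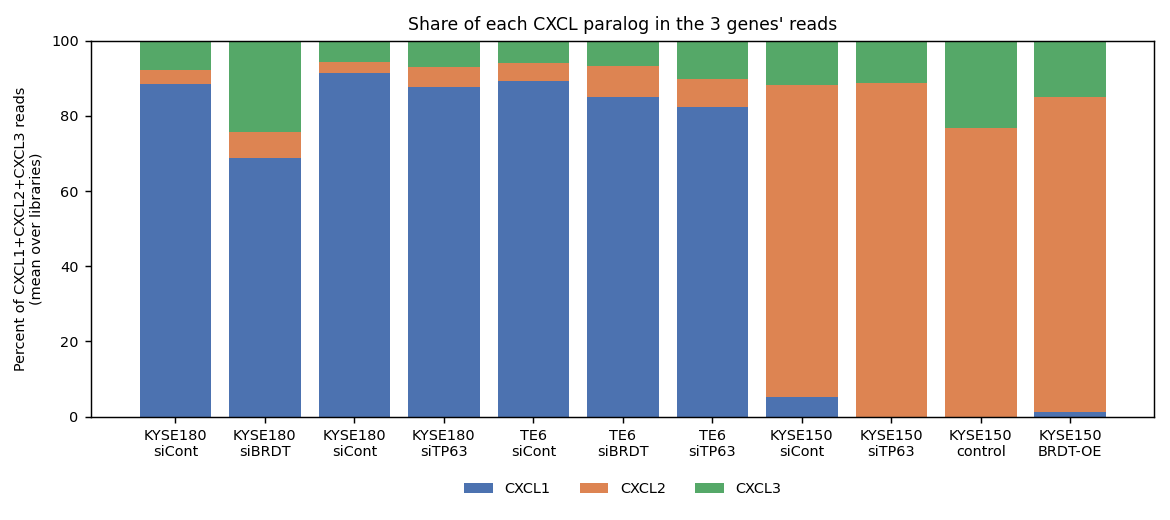
Percent of the reads of CXCL1, CXCL2 and CXCL3 together that came from each paralog, as the mean over the 2 or 3 libraries of each of the 11 groups. CXCL1 makes up most reads in KYSE180 and TE6 and CXCL2 in KYSE150, and the share of CXCL3 under siBRDT in KYSE180 is 24.2% on average.

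Over all 26 libraries, the genes whose deviation from their own control mean was most like that of the CXCL1, CXCL2 and CXCL3 average were PAXIP1-AS1 (Pearson r = 0.93), C19orf54 (0.91), USP21 (0.91), C2orf49 (0.90) and GOLPH3L (0.90), among 11337 genes with a mean of at least 10 in all tables. Libraries of a group share their treatment and normalisation, so these values only describe the pattern. None of the CXCL paralogs reached a mean of 10 in all tables, and CXCL1 had 0 to 2 reads in every KYSE150 library. The average thus rests partly on few reads. Of the members outside the average that could be ranked, IL1RN (0.60) was at rank 819, NFKBIA (0.36) at 2228 and TNFAIP3 (0.34) at 2346.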

How the data were processed

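Total RNA of the ESCC lines was made into mRNA libraries with a kit that does not mark strand. The submitters' processing notes name STAR 2.6.0, HTSeq 0.11.2, DESeq2 1.24.0 and hg38. The deposited values are a signal, gene counts that the authors divided by a size factor per library, with each of the 5 tables normalised by itself. Whole reads were recovered from their steps for every library, so that depth was known.

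Values were analysed as log2(value + 1) with limma 3.58.1 (R 4.3.3; lmFit and eBayes with a trend) in genes with a mean of at least 10 over the fitted libraries. A fold change is on this scale, which understates that of low genes. All 3 TE6 groups entered 1 fit. Contrasts between experiments were differences of fold changes at an adjusted p under 0.05, with no fold limit. P-values were Benjamini-Hochberg adjusted over all genes. Groups came from the sample labels. edgeR 4.0.16 and DESeq2 1.42.0 on recovered reads, pseudocount 0.1, no filter, upper-quartile rescaling, no fold limit, a replicate block and leaving out each library were alternatives. Removal of a length and GC trend (87.4% of genes had values) and a crossed pairing were added after seeing the data. The scripts were tested on simulated data.

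The 10 members and the pathway, interferon and marker lists were chosen with earlier results of these data known. Named were the members, CXCL8 and TNF in every comparison, per comparison the called pathway genes that rose most (3) and fell most (3), and the 5 genes most like the CXCL average. The motifs were chosen with the promoters in view. Intervals and floors cover counting error only.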

Additional observations from a re-analysis of the deposited data

Results flagged for a closer look

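For 8 member genes and contrasts the fold changes of 2 cell lines under the same knockdown differed by the limma test of the difference itself (adjusted p under 0.05). Under siBRDT, KYSE180 minus TE6 was 1.52 for CXCL3 (adjusted p = 0.0107), 1.55 for IL1A (0.0256) and -0.33 for NFKBIA (0.0381). IL1A was under the filter in TE6 and entered through its KYSE180 siBRDT libraries. IL1A was lost without KYSE180 siCont replicate 3 (0.0542), siBRDT replicate 2 (0.0571), siBRDT replicate 3 (0.0661) or TE6 siCont replicate 2 (0.109). NFKBIA was lost without KYSE180 siCont replicate 1 (0.0992) or 2 (0.0704), siBRDT replicate 2 (0.0857) or 3 (0.06), or TE6 siCont replicate 1 (0.0519) or 2 (0.145).

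Under siTP63, KYSE180 minus TE6 was 0.83 for CXCL1 (adjusted p = 0.0113, limma) and 0.86 for TNFAIP3 (0.0399). TNFAIP3 was lost without KYSE180 siCont replicate 1 (0.0793), siTP63 replicate 1 (0.102) or 2 (0.0828), or TE6 siCont replicate 1 (0.0624) or 2 (0.0966) or siTP63 replicate 2 (0.0941).

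KYSE180 minus KYSE150 was -1.28 for NFKBIA (adjusted p = 0.0361, limma), lost without either KYSE180 siCont (0.13 and 0.1), either KYSE180 siTP63 (0.194 and 0.232), KYSE150 siCont replicate 2 (0.0722) or KYSE150 siTP63 replicate 2 (0.0578). TE6 minus KYSE150 was -2.91 for IL6 (0.0484) and -1.33 for NFKBIA (0.0204). IL6 averaged under the filter value in both TE6 groups and entered only through its KYSE150 libraries. Without any 1 of the TE6 siCont and siTP63 libraries IL6 was at 0.186 to 0.213 and NFKBIA at 0.123 to 0.144, and without KYSE150 siTP63 replicate 1 IL6 was at 0.0736.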

How the results depend on the processing

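Groups of 2 or 3 libraries and values under 10 limited most members. Leaving out 1 library kept direction and side of the threshold in 181 of 217 member results and 272 of 319 contrast results, and other settings in 313 of 349 and 171 of 185. With no fold limit NFKBIA was called down under siBRDT in KYSE180 (1 fall instead of 0) and under BRDT-OE (6 instead of 5). With no filter CXCL2 added a rise under siBRDT in KYSE180 (4) and CCL20 a fall under BRDT-OE (6). Rises under siTP63 in KYSE180 were 2 instead of 3 with no filter or DESeq2, and under siBRDT in TE6 2 instead of 3 with no filter, DESeq2 or the length and GC trend removed. Members called up ran from 1 (without siBRDT replicate 1) to 3 for siBRDT in TE6 with 1 library left out. For siTP63 in TE6 they were 1 with no filter, 1 with DESeq2, 0 with the length and GC trend removed, and 0 (without siTP63 replicate 2) to 2 with 1 library left out. For siTP63 in KYSE150 they were 2 with no filter, 5 with DESeq2, 6 with the trend removed and 4 to 5 with 1 library left out, where 1 residual degree of freedom remains. The cause of the other changes was not tested.

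Members that differed under siBRDT between KYSE180 and TE6 were 1 with no filter and 1 to 3 with 1 library left out. Under siTP63 they were 1 with no filter and 1 to 2 with 1 library left out between KYSE180 and TE6, and 0 and 0 to 2 between KYSE180 and KYSE150. Between TE6 and KYSE150 they were 1 with pseudocount 0.1, 1 with no filter, 1 with edgeR and 0 to 3 with 1 library left out. Between siBRDT and siTP63 in KYSE180 they were 3 to 5, with 5 without siCont replicate 1 of the TP63 experiment.

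Same-numbered libraries did not deviate together in every pair (correlations 0.0047 to 0.18 in the KYSE180 BRDT experiment, 0.015 to 0.098 in the BRDT-OE experiment, 0.047 in the KYSE180 TP63 experiment, -0.084 to 0.028 in TE6 and -0.70 in the KYSE150 TP63 experiment), so the numbers were not taken to pair them. In neither experiment with 3 pairs did every library correlate best with its own number. With the replicate block 4 members were called up for siTP63 in KYSE150, and 1, 0 and 0 differed under siTP63 between KYSE180 and TE6, KYSE180 and KYSE150, and TE6 and KYSE150. No other count of members called or differing changed under the block. A crossed pairing in KYSE150, added after seeing the data, called 1626 genes up and 1774 down, with 7 members up.

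Uncalled values changed sign as follows. CXCL1 under siBRDT was -0.048 in TE6 with the trend removed, and in KYSE180 -0.074 (without siCont replicate 2) and -0.027 (without siBRDT replicate 2), from -0.074 to 0.12 over libraries. CCL20 there ran from -0.51 to 0.21, TNFAIP3 under siTP63 in TE6 from -0.0068 to 0.17 and IL1RN under BRDT-OE from -0.022 to 0.35, with -0.00056 without BRDT-OE replicate 3. Among contrasts with 1 library left out, CXCL2 under siBRDT ran from -0.18 to 0.20, with -0.16, -0.14 and -0.019 between, and NFKBIA under siTP63 between KYSE180 and TE6 from -0.0016 to 0.11. Between TE6 and KYSE150 CXCL1 ran from -0.32 to 1.43, IL1B from -0.64 to 0.074 and IL1RN from -0.55 to 0.21, with 0.071 between.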
